A study of Mus musculus with 9 samples.

Results

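The comparison described here set eWAT, the epigonadal white fat of female mice, from animals injected with vesicles of MDA-MB-231 cells (extracellular vesicles, EVs) against eWAT from untreated animals. Its members were chosen by label: untreated mice 4, 7 and 10 and EV mice 36, 37 and 41, which are 6 of the 9 sequenced samples. The other 3 libraries came from mice with an MDA-MB-231 tumour. They entered the filter on low counts, the scaling and the shared estimate of spread, and their levels are given for some genes. All mice were NSG mice, an immunodeficient strain known to lack T, B and NK cells and the common gamma chain of cytokine receptors, and all were sampled at week 12. The genotype label of every sample reads wild type, and no allele separates the groups. The EV mice received 10 tail vein injections over 5 weeks of vesicles from this human triple-negative breast cancer cell line. The study used them to ask what circulating tumour vesicles do to white fat. The labels call the controls untreated, whereas its methods speak of a PBS group for vesicle experiments, so whether these controls were injected is not settled. Each library is described only by its mouse number, so p-values measure the spread between these libraries.

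White fat stores triglyceride in large fat cells and secretes hormones such as leptin and adiponectin, while macrophages, fibroblasts, vessels and a mesothelial layer fill the space between these cells. In cancer cachexia the tissue is known to lose lipid by lipolysis and to gain features of heat-producing fat. Small EVs carry proteins and RNA, microRNAs included, between cells, and the study is about the microRNA miR-204-5p as cargo. In females the pad lies against the ovary, the oviduct and the uterine horn, whose RNA can enter a dissected sample.

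The libraries held 20097743 to 26149300 counts. Of 53700 gene IDs, the 135 that share 67 symbols were left out, since the EV columns carried identical counts for such IDs in 23 of 28 symbols with several detected IDs, against 0 of 16 in the untreated libraries. Another 14 IDs outside these symbols, among those with at least 100 EV counts in sum, had EV counts identical to those of another ID. Each of these is marked where it is named, and IDs with fewer EV counts were not searched. The filter on low counts, run over all 9 libraries, left 17860 genes. Some passed it only through the tumour-bearing libraries, such as the creatine kinase gene Ckmt2. Levels below are CPM, the counts of a gene relative to its library total, scaled by TMM, a factor per library that centres most genes, and differences are log2 fold changes from edgeR with a standard error (SE). In bulk tissue, fewer cells of a type and less RNA per cell cannot be told apart.

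The 6 samples differed in what tissue they held. Inha, the inhibin subunit of ovarian granulosa cells, was at 1388 CPM in untreated 10, 1425 CPM in EV 36 and 1410 CPM in EV 41. It was at 1.97 and 4.16 CPM in untreated 4 and 7 and at 2.68 CPM in EV 37. Ovary RNA was thus present in 1 untreated and 2 EV libraries. Myh11, the myosin heavy chain of smooth muscle, was at 195, 5398 and 742 CPM in untreated 4, 7 and 10 and at 554, 148 and 571 CPM in EV 36, 37 and 41. Adipoq, which encodes adiponectin of fat cells, was at 4395, 132 and 335 CPM in the untreated and at 729, 4436 and 634 CPM in the EV libraries. Untreated 4 and EV 37 were therefore the libraries richest in fat cell RNA, and untreated 7 the poorest and the one with the highest Myh11 level. The fitted log2 differences of EV from untreated were 1.02 ± 2.25 for Inha, -2.31 ± 1.17 for Myh11 and 0.25 ± 1.26 for Adipoq (SE, edgeR adjusted p = 1 for each). The Inha value was 8.26 without untreated 10, and the Myh11 value -0.143 without untreated 7.

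**Figure D1:**
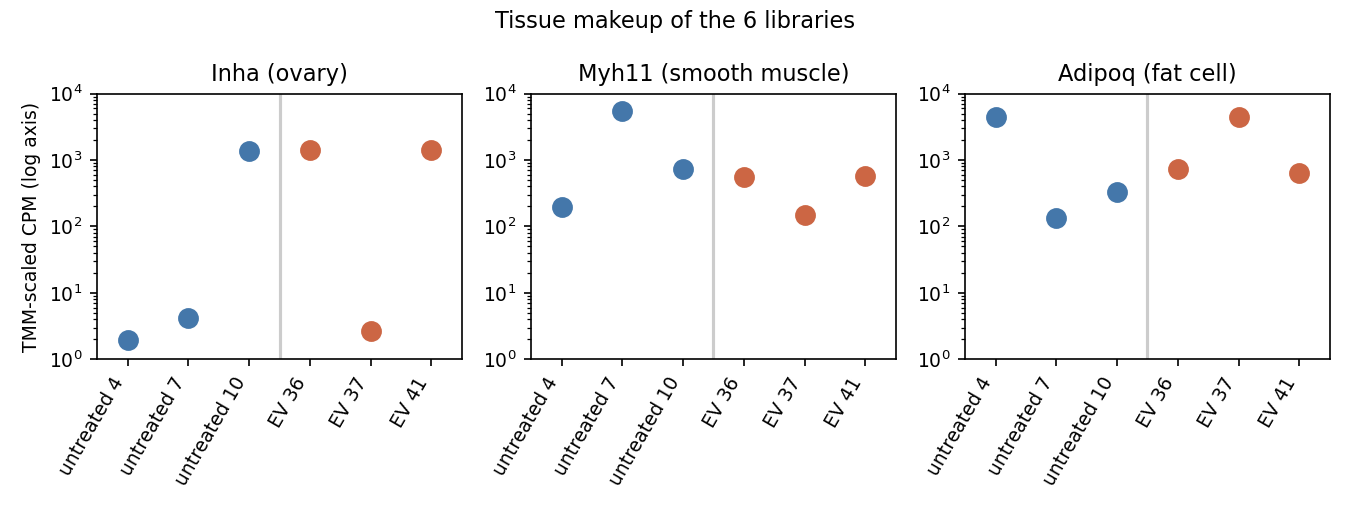
Level of Inha, Myh11 and Adipoq in each of the 3 untreated (blue) and 3 EV (orange) libraries, in TMM-scaled CPM on a log axis. Each point is 1 library; Inha stood at 1388 to 1425 CPM in untreated 10, EV 36 and EV 41 and under 5 CPM in the others.

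Of 16 lymphocyte genes listed, 4 passed the filter on low counts. Fat cell markers were detected in every library, including untreated 7, where Plin1, the lipid droplet coat protein, was at 67.9 CPM and Fabp4, the fatty acid carrier, at 867 CPM. The list means of 14 ovary genes and 10 oocyte genes followed Inha: the oocyte list had a mean log2 level of 4.27 in untreated 10, 4.55 in EV 36 and 3.91 in EV 41, against -0.94 to -0.87 in untreated 4, untreated 7 and EV 37. A few genes marked single libraries. Untreated 7 held Upk2, a uroplakin of the urinary tract lining, at 1015 CPM, and untreated 4 held the pancreatic enzyme Amy2a5 at 177 CPM. In the other libraries Upk2 was at 0 to 10.9 CPM and Amy2a5 at 0 to 1.60 CPM.

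Distances over all genes showed the same order. The measure was the median over 17860 genes of the absolute difference in log2(CPM + 0.5). EV 36 and EV 41 were 0.164 apart, untreated 10 was 0.196 from EV 36 and 0.184 from EV 41, and untreated 4 was 0.258 from EV 37. All other 11 pairs lay between 0.553 and 0.72. Each EV library was thus closest to a library with like makeup, and for EV 37 that library was an untreated one. The median distance was 0.606 over the 9 pairs between groups and 0.59 over the 6 pairs within groups. Genes differing over 2-fold made up 3.9% to 6.25% of genes in the 3 closest EV-untreated pairs and 28.7% to 37.7% in the 11 distant pairs. In a principal component analysis of the 6 libraries the first component, 53.8% of the variance, set untreated 4 and EV 37 (113.2 and 99.0) against untreated 10, EV 36 and EV 41 (-76.6 to -61.6), and the second, 36.6%, set untreated 7 (144.0) against the rest. The difference between the group means took up 10.4% of the summed squares.

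**Figure D2:**
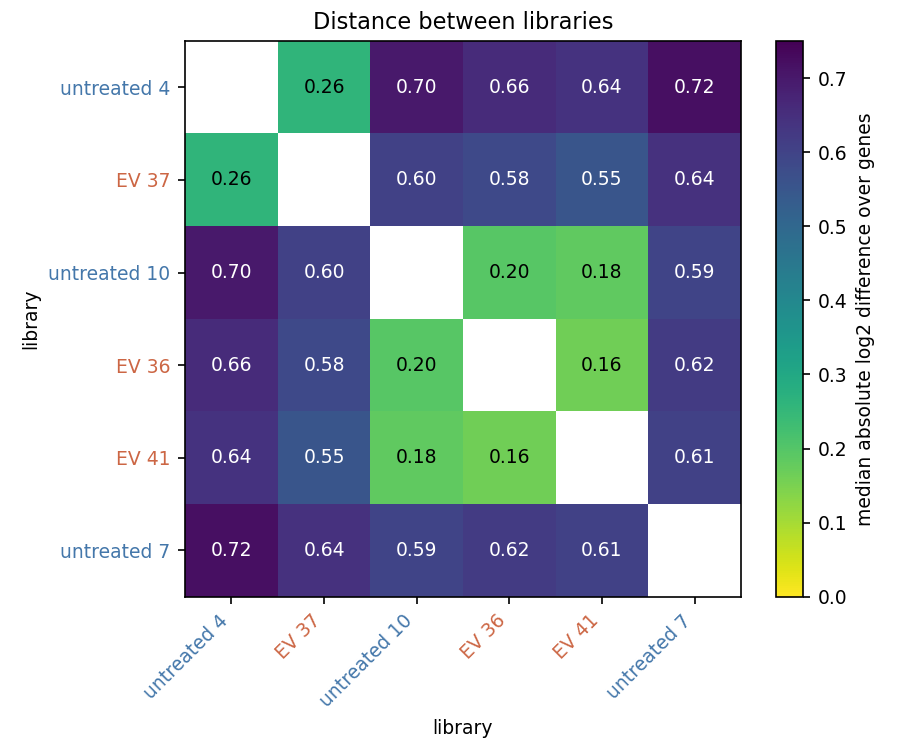
Median absolute log2 difference over 17860 genes for each pair of the 6 libraries, with untreated libraries in blue letters and EV libraries in orange; lighter cells are closer pairs. The low values are untreated 4 with EV 37 (0.258) and the block of untreated 10, EV 36 and EV 41 (0.164 to 0.196).

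No gene passed the test. Of 17860 genes, 0 were called higher (0%) and 0 lower (0%) in EV than in untreated eWAT by edgeR at an adjusted p under 0.05, 198 had an unadjusted p under 0.05, and the lowest adjusted p was 0.347. DESeq2 called 2 higher (0.0115% of its 17376 genes) and 2 lower (0.0115%), with 421 at an unadjusted p under 0.05. The 2 higher ones, Palm2 and Gm13301, are IDs whose EV counts repeat those of another ID, and their levels in EV mice are not read here. Of the 2 lower ones, Gjb2, a connexin of gap junctions, was at 1.46, 12.8 and 4.42 CPM in the untreated and at 0.538, 0.346 and 0.568 CPM in the EV libraries, a log2 difference of -3.67 ± 0.83. AC121821.1, a clone-named gene, was at 4.95, 3.43 and 7.33 CPM against 0.251, 0.173 and 0.0758 CPM (-4.93 ± 0.62), and at 2.79 to 4.07 CPM in tumour-bearing mice. The groups did not overlap for either gene, and the EV levels of AC121821.1 lay near 0. Both genes had EV counts too low for the search for repeated counts. Whether faults of the EV columns affect them was not tested. At an unadjusted p under 0.05 edgeR had 1481 genes when untreated 4 was left out, 92 when untreated 7 was and 1895 when untreated 10 was, and 63, 249 and 81 genes when EV 36, EV 37 or EV 41 was, with 0 called each time.

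Consistency over libraries was described gene by gene as the number of the 9 EV-untreated library pairs in which the EV level was the higher. The EV level was higher in all 9 pairs for 268 genes (1.5%) and groups did not overlap in the other direction for 226 (1.27%). Most genes lay in the middle, with 13069 genes at 3 to 6 of 9 pairs. Without any scaling factors the counts without overlap were 350 higher and 83 lower (80.8% higher, against 54.3% with TMM). With RLE factors, another scaling offered by edgeR, they were 243 and 278 (46.6% higher). The median difference of all genes was -0.00143 with TMM and 0.119 without scaling, and the split by direction depended on the scaling. Leaving out a library left 2 against 3 and more genes without overlap: 2194 higher and 1583 lower without untreated 4, 620 and 534 without untreated 7, 1913 and 1166 without untreated 10, 451 and 388 without EV 36, 1976 and 1039 without EV 37, and 521 and 377 without EV 41.

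**Figure D3:**
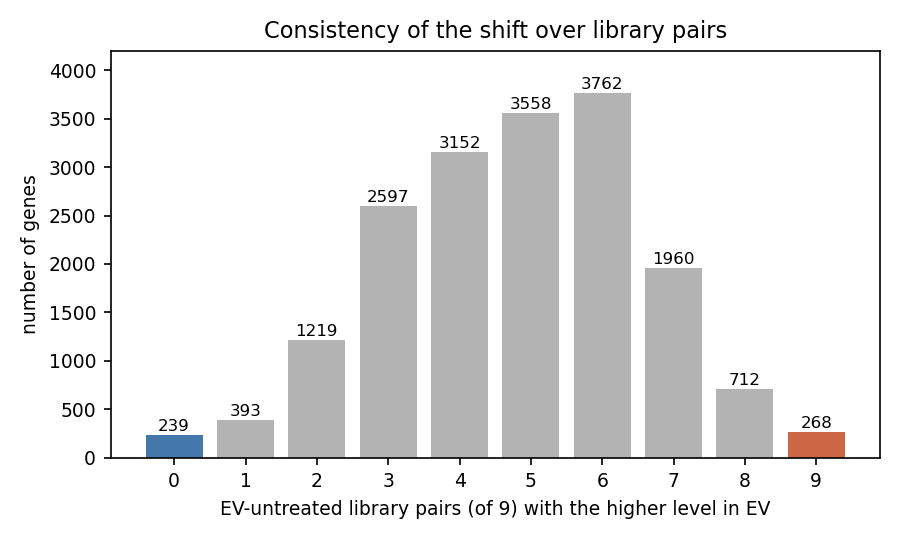
Number of genes (of 17860) by how many of the 9 EV-untreated library pairs had the higher level in the EV library. The end bars are the 239 genes higher in EV in 0 pairs, ties included, and the 268 genes higher in all 9.

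Size and consistency went apart. Of 2166 genes beyond 2-fold in the fitted difference (943 higher, 1223 lower), 107 (4.94%) had groups without overlap. Predicted genes and IDs with repeated EV counts aside, at a mean of 5 CPM or more the largest fitted differences on each side came with 1 library far above the other 5. Saa3, a serum amyloid of the acute phase, was at 270 CPM in EV 36 and at 0.347 to 4.84 CPM in the other 5. Lep, which encodes leptin, was at 49.2, 2.25 and 28.2 CPM in the untreated and at 39.1, 716 and 37.3 CPM in the EV libraries, and Nnat, an imprinted gene of fat cells and neurons, was at 1170 CPM in EV 37 against 54.3 and 34.1 CPM in EV 36 and 41. On the lower side Krt15, a keratin of epithelial basal cells, was at 560 CPM in untreated 7 and at 0.0562 to 1.19 CPM in the other 5. Only 31 genes with a mean of at least 5 CPM kept a gap of over 0.25 between the groups on the log2 scale (16 higher, 15 lower), and 8 a gap of over 0.5.

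Apart from Palm2 and Gm13301, with their repeated counts, Cish had the widest gap of these 31 genes. It encodes an SH2 protein that restrains cytokine receptors and is itself switched on by the transcription factor STAT5. Its level was 24.0, 21.4 and 22.7 CPM in untreated 4, 7 and 10 and 5.6, 1.95 and 5.83 CPM in EV 36, 37 and 41. Untreated libraries lay within a narrow band and all EV libraries lay under it, which is the pattern that a choice by gap picks out. The log2 difference was -2.34 ± 0.74 and the gap between the groups 1.79, yet the edgeR adjusted p was 1 (unadjusted 0.0125). The difference stayed at or below -1.99 in 21 alternatives of processing (adjusted p 0.48 to 1), and tumour-bearing mice had 1.46, 11.7 and 11.9 CPM. Against its nearest untreated library the difference was -1.93 for EV 36 and -1.87 for EV 41 (untreated 10) and -3.32 for EV 37 (untreated 4). The sign of these 3 values follows from the groups not overlapping and is no further support.

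The Cish promoter is shown because STAT5 is known to act on it and Cish had the widest gap among genes with a mean of at least 5 CPM, IDs with repeated EV counts aside. The window (RefSeq, GRCm38.p6, chr9:107296409-107296708, plus strand) runs from 250 bases before to 50 after the annotated start, and capitals mark matches to the STAT motif TTCNNNGAA, which reads the same on both strands:
Cish: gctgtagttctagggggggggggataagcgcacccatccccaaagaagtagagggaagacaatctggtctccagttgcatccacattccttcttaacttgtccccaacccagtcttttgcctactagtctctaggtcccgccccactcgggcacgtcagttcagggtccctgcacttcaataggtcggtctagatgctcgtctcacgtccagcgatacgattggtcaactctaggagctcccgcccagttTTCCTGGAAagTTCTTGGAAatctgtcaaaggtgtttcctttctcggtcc
It holds 2 matches, of which the first begins at the annotated start base and the second 11 bases after it. The motif is present in 8.3% of 32851 promoter windows of this length. A match is a description of letters, not of bound protein. Other genes around this receptor pathway did not separate the groups. In the leptin and JAK-STAT list of 14 genes 7 had positive values and 0 were called. Cish alone had no overlap, being lower in EV as 1.27% of all genes were. The median log2 difference of the list was -0.03, against -0.00143 over all genes. Stat5a was at 68.7, 11.4 and 39.9 CPM in the untreated and 49.8, 69.8 and 45.04 CPM in the EV libraries. Socs2, another STAT5-induced inhibitor, chosen after its values were seen, was at 30.2, 7.76 and 165 CPM against 120, 7.69 and 102 CPM, so its groups overlapped.

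Immediate early genes, which cells switch on within minutes of a stimulus, had mostly negative values. In the list of 19 immediate early and heat shock genes 3 had positive values, 0 were called, and the median log2 difference was -0.57. In the 3 closest EV-untreated pairs the medians were smaller, at -0.28, -0.31 and -0.12 for EV 36, EV 41 and EV 37. In all 3 pairs 6 genes were lower and 1 higher (13.1% and 18.9% of all genes). Without overlap 2 were lower, Nr4a1 and Egr3, and 0 higher (1.27% and 1.5% of all genes). Nr4a1, an orphan nuclear receptor, was at 26.8, 34.9 and 51.6 CPM in the untreated and 16.7, 6.48 and 21.5 CPM in the EV libraries (-1.34 ± 1.21), without overlap. Its level was 379 CPM in tumour-bearing mouse 21, and the test used 1 estimate of spread from all 9 libraries. Egr3, another transcription factor of this class, was at 2.08, 1.42 and 1.81 CPM against 1.40, 0.692 and 1.36 CPM (-0.62 ± 0.86). The heat shock genes Hspa1a and Hspa1b (-2.24 ± 0.98 and -2.38 ± 0.96) overlapped and were highest in untreated 7, at 317 and 542 CPM. In these near-identical copies reads may be split by the counting.

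Errfi1 and Ptger4 had no overlap either. Errfi1, a feedback inhibitor of the EGF receptor, was at 122, 97.0 and 95.5 CPM in the untreated and 71.3, 75.0 and 46.5 CPM in the EV libraries (-0.71 ± 0.84). Ptger4, a receptor for prostaglandin E2, was at 13.4, 15.2 and 16.1 CPM against 10.9, 8.86 and 8.56 CPM (-0.66 ± 0.47). The promoter of Nr4a1 is shown because it belongs to the genes known to respond to cyclic AMP through CREB. The window is RefSeq GRCm38.p6 chr15:101266596-101266895, plus strand, 250 bases before to 50 after the annotated start, and capitals mark TGACG, the core of the CREB motif, on either strand, which reads CGTCA where the match is on the other strand:
Nr4a1: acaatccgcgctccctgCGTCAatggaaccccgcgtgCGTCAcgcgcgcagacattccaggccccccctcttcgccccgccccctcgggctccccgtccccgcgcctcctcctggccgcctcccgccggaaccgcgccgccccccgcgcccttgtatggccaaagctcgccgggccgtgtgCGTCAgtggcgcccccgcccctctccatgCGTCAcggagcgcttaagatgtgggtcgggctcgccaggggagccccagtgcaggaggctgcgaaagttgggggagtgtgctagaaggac
It holds 4 matches, beginning at -233, -213, -69 and -40 from the start. Of the 32851 windows 20.8% hold at least 1. Neither CREB nor STAT5 binding was measured, and no cause of these levels was tested.

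Wnt11, Axin2, Nid2 and Col4a1 were among the genes whose level was higher in all 3 EV libraries. Wnt11, a secreted Wnt ligand, was at 4.84, 5.54 and 5.33 CPM in the untreated and 11.5, 7.91 and 7.92 CPM in the EV libraries (0.80 ± 0.31). Axin2, a scaffold of the complex that destroys β-catenin and a common Wnt target, was at 16.1, 14.3 and 29.3 CPM against 38.2, 44.4 and 34.3 CPM (0.97 ± 0.42). Both kept their separation without scaling factors. Nid2, a nidogen that links basement membrane sheets, was at 46.3, 23.4 and 46.4 CPM against 60.2, 67.8 and 61.4 CPM (0.71 ± 0.29). Col4a1, a chain of basement membrane collagen, was at 555, 356 and 617 CPM against 709, 766 and 702 CPM (0.51 ± 0.33), and this separation was lost without scaling factors. Untreated 7 was the lowest library for Axin2, Nid2 and Col4a1. The wider list of 17 fibroblast and matrix genes had 10 positive values, 0 called, none without overlap and a median of 0.18.

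Mest, an imprinted gene whose level in mouse fat is known to go with fat mass gain, was at 5.23, 2.98 and 13.9 CPM in the untreated and 30.3, 25.2 and 20.9 CPM in the EV libraries, a log2 difference of 1.78 ± 0.63 and a gap of 0.56. Its level in tumour-bearing mice was 8.08 to 27.2 CPM. Other genes of this side named for their gap were Arhgap4, Chek2, Slc25a42, Mfsd7a, Plxnd1, Hdac5, Parp11, Fam69b and Akna, with log2 differences of 0.34 to 1.17. Slc25a42, the mitochondrial carrier of coenzyme A, was at 44.3, 13.8 and 40.6 CPM against 61.0, 60.8 and 56.7 CPM (0.86 ± 0.39). Chek2, a DNA damage checkpoint kinase, was at 7.25, 6.72 and 7.30 CPM against 10.3, 10.3 and 11.1 CPM (0.58 ± 0.26). At a mean of at least 100 CPM the next 5 by gap were Col4a1, Arhgap29, Map4k4, Thra and Mprip, with differences of 0.22 to 0.54. All of these had an edgeR adjusted p of 1.

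On the lower side Flvcr2, a membrane transporter, was at 9.90, 12.4 and 8.62 CPM in the untreated and 5.64, 5.01 and 4.66 CPM in the EV libraries (-1.01 ± 0.36). Car2, a carbonic anhydrase, was at 14.0, 13.1 and 18.6 CPM against 9.62, 3.67 and 9.66 CPM (-0.99 ± 0.48). Gng12, a G protein gamma subunit, was at 89.1, 110 and 116 CPM against 67.2, 73.9 and 60.4 CPM (-0.64 ± 0.20). For each of these 3 genes every EV library lay under every untreated one. Cry1, a repressor of the circadian clock, was at 24.5, 27.7 and 20.8 CPM against 17.2, 10.5 and 14.1 CPM (-0.80 ± 0.40), the only one of 14 clock genes without overlap. Over all genes 1.27% were lower without overlap. The remaining ones named for their gap were Papln, Slc22a15, Rbm3, Arhgap27, Rpl35a-ps3, Myh14 and Arfgap3 (-1.54 to -0.44), and the next 5 at 100 CPM or more were Atp1b3, Csnk1a1, Rab11a, Ddx3x and Fads1 (-0.72 to -0.23). Rpl35a-ps3 is a pseudogene whose reads may belong to its parent gene. Of the 40 genes named for their gap, 17 kept groups without overlap when no scaling factors were used and 40 with RLE factors. Palm2, whose EV counts repeat those of another ID, is included in each of these counts. The sign of their differences is fixed by how they were chosen.

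**Figure D4:**
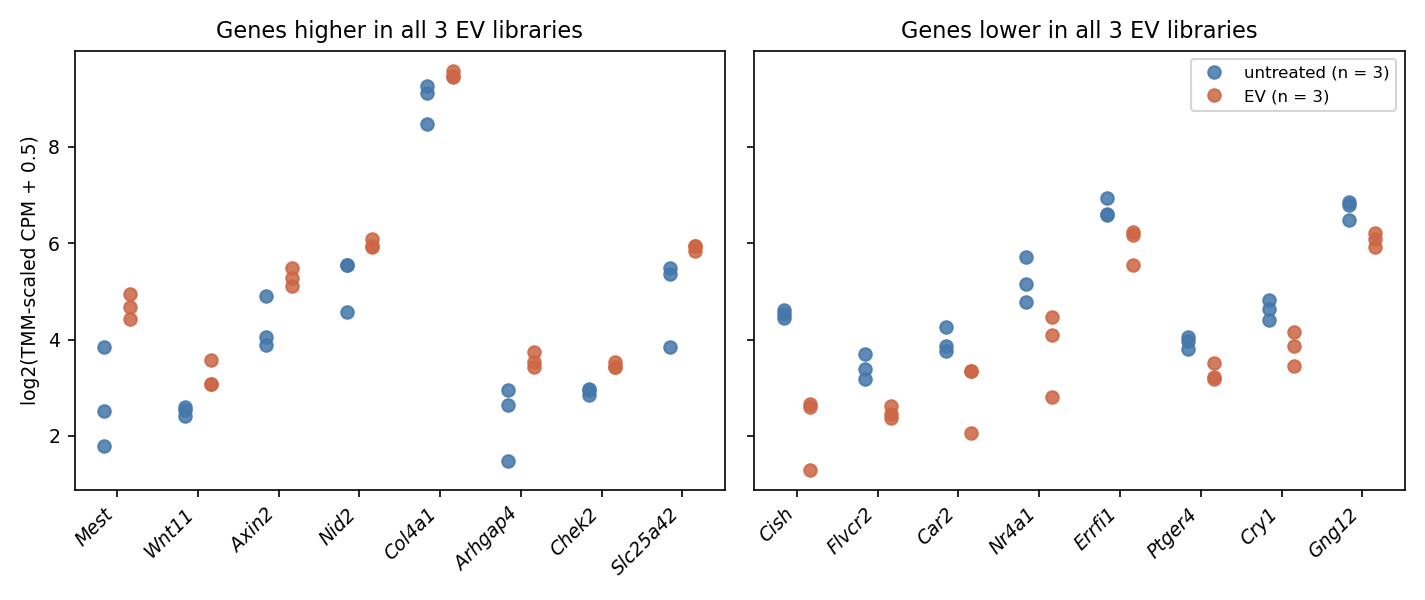
Level of 8 genes higher and 8 genes lower in all 3 EV libraries, as log2(TMM-scaled CPM + 0.5), with 1 point per library (untreated blue, EV orange, n = 3 each). Among the genes plotted the gap between the groups is widest for Cish (1.79) and 0.56 for Mest.

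Each EV library was also placed beside the untreated library nearest to it over all genes: EV 36 and EV 41 beside untreated 10, and EV 37 beside untreated 4. These 3 pairs were chosen from the data, and the first 2 share a library, so their differences are a description without a test. The EV level was higher in all 3 pairs for 3368 genes (18.9%) and lower in all 3 for 2343 (13.1%), and 5 genes with a mean of at least 5 CPM were over 2-fold higher and 9 over 2-fold lower in every pair. Differences within pairs are on log2(CPM + 0.5). The 5 were Palm2 and Gm13301, whose EV counts repeat those of another ID, and Nos1ap, Cidea and Mki67. The 9 were Cish, Nr4a1, Lipg, Ccn5, Cyp11a1, Zfp979, Lcn2, Pigr and Klk1. Both sets were named after their values were seen. Lipg, endothelial lipase, was at 42.6, 10.7 and 160 CPM in untreated 4, 7 and 10 and at 29.4, 3.54 and 58.0 CPM in EV 36, 37 and 41. Cyp11a1, the enzyme that starts steroid synthesis in luteal cells, was at 3384 CPM in untreated 10 against 736 and 1519 CPM in EV 36 and EV 41, and at 0.0693 to 2.47 CPM in the other 3. Nos1ap, an adaptor of neuronal nitric oxide synthase, was at 1.18, 51.6 and 1.36 CPM in the untreated and 4.70, 3.54 and 8.45 CPM in the EV libraries. Untreated 7, which is in none of the pairs, was the highest library for Nos1ap and the lowest for Cyp11a1, and the groups overlapped for all 3 genes.

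Macrophage genes had mostly positive values in these pairs. Of 19 measured macrophage genes 12 were higher in all 3 pairs and 0 lower in all 3 (18.9% and 13.1% of all genes). The median differences were 0.80 (EV 36), 0.23 (EV 41) and 0.72 (EV 37). Adgre1, a surface antigen of mature macrophages, was at 51.6, 21 and 17.3 CPM in the untreated and 57.7, 85.3 and 33.5 CPM in the EV libraries. Csf1r, the receptor for macrophage growth factor, was at 123, 68.2 and 37.2 CPM against 77.4, 197 and 50.01 CPM. EV 37 was highest for both, and EV 41 lay below untreated 4, so the groups overlapped. Ccr2, the chemokine receptor of recruited monocytes, was at 4.11, 1.73 and 2.42 CPM against 9.91, 11.0 and 3.83 CPM (1.59 ± 0.62, edgeR adjusted p = 1). In the whole comparison all 19 macrophage genes had positive values (median 0.62), 0 were called and none was free of overlap. Adipoq was at 729 and 634 CPM in EV 36 and EV 41 against 335 CPM in untreated 10. In EV 37 it was at 4436 CPM against 4395 CPM in untreated 4. The part of tissue makeup in the macrophage values was not tested.

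Complement genes, many of them made by macrophages and fat tissue fibroblasts, showed the same order: 11 of 16 were higher in all 3 pairs and 0 lower in all 3 (medians 0.82, 0.27 and 0.61 in EV 36, EV 41 and EV 37), with 3 of these genes, C1qa, C1qb and C1qc, also on the macrophage list. C3ar1, the receptor for a cleavage fragment of C3, was at 22.1, 5.89 and 7.60 CPM in the untreated and 20.3, 41.9 and 13.3 CPM in the EV libraries (1.09 ± 0.59). C4b was at 574, 168 and 114 CPM against 280, 1361 and 133 CPM, highest in EV 37 and next in untreated 4. Of 16 interferon-response genes 6 were higher in all 3 pairs and 0 lower in all 3, and the medians differed in sign, at 0.75 in EV 37 and -0.15 and -0.04 in EV 36 and EV 41. Over all genes 18.9% were higher and 13.1% lower in all 3 pairs. The part of tissue makeup in the complement and interferon values was not tested.

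Cell cycle genes followed the ovary-containing libraries. Mki67, a marker of dividing cells, was at 34.3 CPM in untreated 10 and 72.1 and 73.0 CPM in EV 36 and EV 41, the ovary-containing libraries, and at 1.52, 4.50 and 4.58 CPM in untreated 4, untreated 7 and EV 37. Top2a, topoisomerase II of dividing cells, was at 41.2, 83.4 and 90.8 CPM in the first 3 and at 1.97, 3.85 and 4.32 CPM in the others. Within the 3 pairs the EV level was the higher one for both genes. Of 20 cell cycle genes 16 were higher in all 3 pairs and 0 lower (18.9% and 13.1% of all genes). Their medians were 0.65, 0.68 and 0.25 for EV 36, EV 41 and EV 37. All 20 had positive fitted differences, median 1.44, but 0 were called. Inha differed by 0.04, 0.02 and 0.37 in the same pairs, but other ovary genes differed more. The 14 ovary genes had medians of -0.13, -0.2 and -0.32 in the same order, with 2 higher and 3 lower in all 3 pairs. Cyp19a1, the aromatase gene, was at -3.64 and -3.57 in EV 36 and EV 41 against untreated 10, and Esr2, an oestrogen receptor gene, at 0.82 and 0.39. The part of ovarian tissue in the cell cycle values was not tested.

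Fat cell programmes differed in sign between the pairs. The 18 adipocyte identity genes had medians of 0.89 and 1.16 in EV 36 and EV 41 against untreated 10 and of -0.47 in EV 37 against untreated 4. Lipogenesis genes (16) had 0.61, 1.32 and -1.07, lipolysis genes (14) 0.77, 1.01 and -0.43, nuclear OXPHOS genes (36) 0.08, 0.32 and -0.47, and the 13 mitochondrial mRNAs 0.14, 0.37 and -1.14, in the same order. EV 37 was thus below its fat-rich partner for each of these lists, whereas EV 36 and EV 41 were above theirs, whose Adipoq level was lower (335 CPM against 729 and 634 CPM). Adipoq itself was 0.01 apart in EV 37 and untreated 4. Over the whole comparison the medians were -0.10 for adipocyte identity, -0.22 for lipogenesis, -0.02 for lipolysis, -0.13 for OXPHOS and -0.51 for mitochondrial mRNAs, with 0 called. Atp5g1, a subunit of ATP synthase, was the only one of these genes without overlap (70.4, 67.0 and 65.5 CPM against 56.4, 54.2 and 50.6 CPM). Over all genes 1.27% were lower without overlap.

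**Figure D5:**
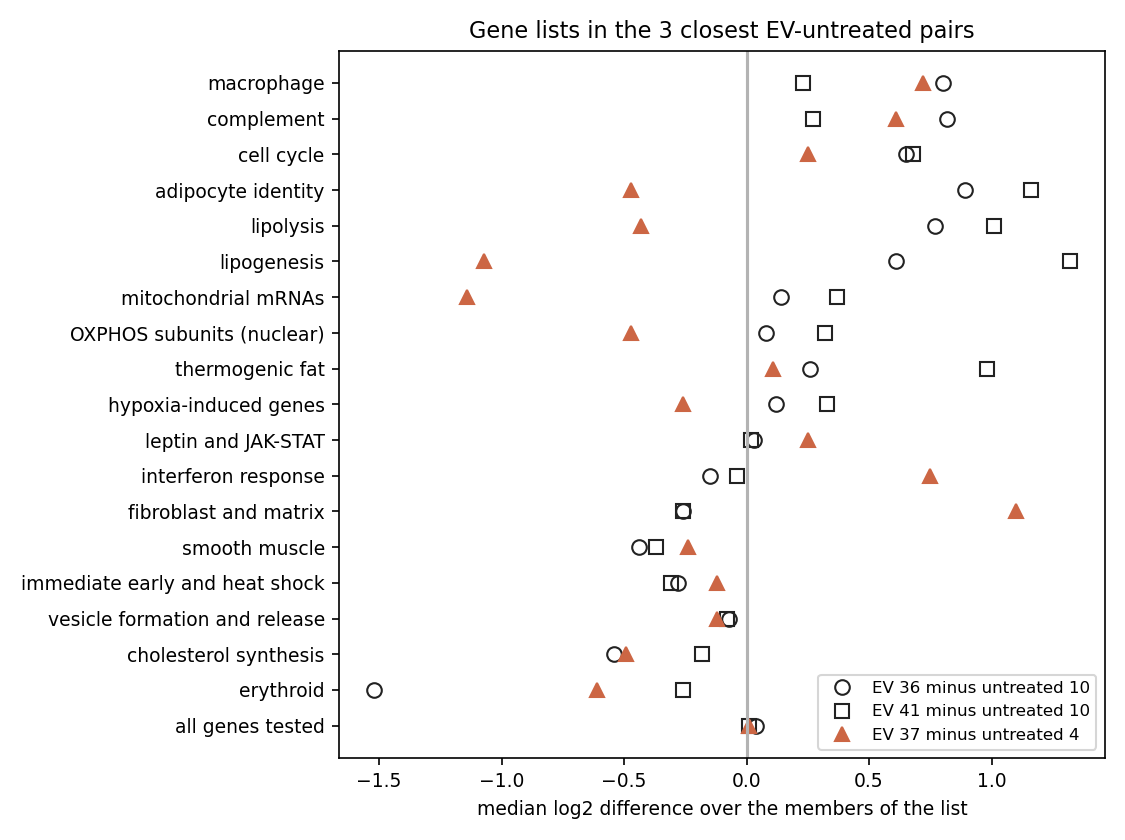
Median log2 difference over the members of each gene list in the 3 closest EV-untreated pairs: circles EV 36 and squares EV 41 against untreated 10, triangles EV 37 against untreated 4. Macrophage, complement and cell cycle lists lie right of 0 in all 3 pairs, and adipocyte, lipolysis and lipogenesis lists lie right of 0 in EV 36 and EV 41 and left in EV 37.

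Of the thermogenic genes, Cidea and Otop1 were highest in EV 37 and EV 41, and Ucp1 in EV 41. Cidea, a lipid droplet protein of heat-producing fat, was at 39.4, 4.16 and 6.62 CPM in the untreated and 17.3, 88.4 and 58.1 CPM in the EV libraries (1.71 ± 0.90), and higher in each of the 3 close pairs, by 1.32, 3.04 and 1.16 for EV 36, EV 41 and EV 37. Ucp1, the uncoupling protein, was on the log2 scale 6.90 higher in EV 41 than in untreated 10 but 0.33 and 0.08 higher in EV 36 and EV 37 than in their partners. In the whole comparison 13 of 22 measured thermogenic genes had positive values (median 0.17), 0 were called and none was free of overlap. Ckmt1 (-2.93 ± 1.62), Alpl (-2.30 ± 1.03) and Eva1a (-1.25 ± 0.59) were among those with negative values. In all 3 pairs 9 of the 22 were higher and 2 lower (18.9% and 13.1% of all genes). Their medians were 0.26, 0.98 and 0.11 for EV 36, EV 41 and EV 37. The 18 adipocyte identity genes had medians of 0.89, 1.16 and -0.47 in the same pairs, and the part of fat content in the thermogenic values was not tested. Otop1, a proton channel found in brown fat, was at 5.34, 0.173 and 1.06 CPM against 1.29, 18.1 and 9.85 CPM (2.16 ± 1.21). The groups overlapped for Cidea, Ucp1 and Otop1, and EV 36 was the low EV library for all of them.

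Gene lists of the hypoxia axis, which the study is about, had medians near 0, while single members lay further out. Vhl, which directs HIF1A to the proteasome when oxygen is ample, was at 26.5, 22.6 and 27.0 CPM in the untreated and 25.9, 35.4 and 24.5 CPM in the EV libraries (0.17 ± 0.21), so its highest library was EV 37. Of 13 VHL and HIF regulators 3 had positive values, 0 were called and the median was -0.14. Egln3, a HIF prolyl hydroxylase that hypoxia induces, was at 37.3, 39.3 and 5.22 CPM against 8.15, 14.0 and 9.17 CPM (-1.39 ± 0.65). Of 21 hypoxia-induced genes 9 had positive values, the median was -0.07, and P4ha2, a collagen prolyl hydroxylase, was the only one without overlap, at 16.1, 15.5 and 16.2 CPM against 19.4, 32.5 and 16.6 CPM (0.52 ± 0.30). Over all genes 1.5% were higher without overlap. MicroRNA levels were not measured in these libraries. The microRNA that the study proposed as cargo is shown because its seed, in capitals (bases 2 to 8), is what pairs with a target (RefSeq, GRCm38.p6, chr19:22750610-22750631, plus strand):
mmu-miR-204-5p: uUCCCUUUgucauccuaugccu

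Genes of vesicle formation and release in the recipient tissue had medians just under 0 in the 3 close pairs. Of 17 measured genes 4 had positive values and 0 were called. In all 3 close pairs 7 were lower and 0 higher (13.1% and 18.9% of all genes). The median differences were -0.07, -0.08 and -0.12 for EV 36, EV 41 and EV 37. Without overlap 2 were lower, Rab11a and Vps4b, and 0 higher (1.27% and 1.5% of all genes). Rab11a, a GTPase of recycling endosomes, had no overlap, at 101, 201 and 90.5 CPM in the untreated and 74.3, 84.6 and 79.1 CPM in the EV libraries (-0.72 ± 0.31). Vps4b, the ATPase that ends ESCRT action, was at 82.5, 111 and 79.9 CPM against 75.3, 72.8 and 78.7 CPM. Rab27b, a GTPase of vesicle docking, was at 304 CPM in untreated 7 and 1.91 to 6.21 CPM in the other 5. Cholesterol synthesis genes were lower in all 3 pairs for 8 of 15 and higher for 0 (medians -0.54, -0.18 and -0.49 for EV 36, EV 41 and EV 37), among them Sqle, the squalene epoxidase of the pathway, at 14.3, 68.4 and 63.2 CPM in the untreated and 42.2, 12.1 and 53.4 CPM in the EV libraries. Globin and other erythroid genes had a median of -0.65 over 6 genes, with 0 positive values and 4 lower in all 3 pairs. Hba-a2, an alpha globin with a near-identical copy, was at 511, 211 and 191 CPM in the untreated and 63.8, 372 and 112 CPM in the EV libraries, lowest in EV 36.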

How the data were processed

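RNA from 20 mg of eWAT of each mouse was sequenced as paired-end reads by the authors. Per the paper's methods, reads were trimmed with SeqPrep and Sickle, aligned with HISAT2, assembled with StringTie and quantified with RSEM, and DESeq2 was the authors' test. The submitters' processing notes differ from this and list Bowtie 0.12.2, mm8 and mm9, so the build of the counts is not settled, and 2 library kits are named (TruSeq, SMARTER). The annotation used for counting is not given in the sources. Overlapping and antisense genes can share reads. The deposited table holds expected counts (estimated counts per gene ID, not whole numbers). Its 9 columns named TPM were not used.

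Expected counts were rounded and fitted in R 4.3.3 with edgeR 4.0.16 (filterByExpr, TMM, quasi-likelihood test, group as the only term, all 9 libraries). The call threshold was 0.05 on p-values adjusted by Benjamini-Hochberg over 17860 genes. TMM factors lay between 0.756 and 1.32, and the coefficient of biological variation came to 62.8%. The SE is the absolute log2 fold change over the square root of F. DESeq2 1.42.0, other scaling, filters, makeup terms and left-out libraries were alternatives. Symbols came from the reference gene table, which matched 52093 IDs and left 1607 unmatched. Tested on counts simulated with each gene's fitted spread (17340 genes), the fit found 30 of 100 genes given a 4-fold change. It found 84 of 100 given a 32-fold one, with 7 false among 121 calls. Genes were drawn independently, so the simulation lacked the makeup differences that the libraries showed over many genes.

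Genes were named by rule: Inha, Myh11 and Adipoq, genes called by edgeR or DESeq2, up to 15 genes per direction by gap between groups at a mean of at least 5 CPM and 5 more at 100 CPM (without predicted genes), 5 per direction by fold change, up to 4 members of a described list, and Lep, Vhl, Hif1a, Ucp1 and Cidea. Some genes that the rule names are not reported here. Fixed cell type markers and genes said to be chosen after their values were seen are also named. The members of the comparison, the 34 gene lists and the rules were chosen with earlier results of these data known. Promoter and microRNA sequences are from RefSeq tables of GRCm38.p6. The tumour-bearing libraries were not compared.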

Additional observations from a re-analysis of the deposited data

How the results depend on the processing

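No paired analysis was possible because the mouse numbers of the untreated and EV groups differ. edgeR called 0 genes in either direction under each alternative except with IDs sharing a symbol kept, where 1 lower ID was called, one of 2 for Aldoa, whose EV counts of 17, 12 and 22 were the same for both IDs. DESeq2 called 2 higher and 2 lower. Leaving out the 14 IDs with repeated EV counts (chosen after seeing the data) kept 0 and 0. Groups did not overlap for 500 higher and 394 lower genes with every gene of at least 1 count, for 137 higher genes at a mean of at least 5 CPM, and for 83 lower genes without scaling factors. Leaving out 1 library, chosen after seeing the data, gave 451 to 2194 higher and 377 to 1583 lower, since 2 against 3 overlap less by construction.

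Of 59 named genes 12 changed the sign of their log2 fold change in an alternative. With an Inha term Inha was at -0.0183, with Inha and Myh11 terms at -0.02 and without the ovary-containing libraries at -0.172. With a Myh11 term Myh11 was at 0.000493, Adipoq at -0.303, Krt15 at 0.187, Upk2 at 5.99, Tmem238l at 1.86 and Hif1a at 0.178. With an Adipoq term Upk2 was at 18.8, Tmem238l at 8.9 and Hif1a at 0.17, and with Inha and Myh11 terms Krt15 was at 1.22, Liph at 0.711, Upk2 at 5.33, Tmem238l at 1.74 and Hif1a at 0.0558. Leaving out 1 library gave Inha 0.442 to 8.26 (the highest without untreated 10), Myh11 -2.85 to -0.143 (the last without untreated 7), Adipoq -1.25 to 3.05, Sfrp5 -1.15 to 3.67, Nnat -0.29 to 3.79, Krt15 -8.81 to 1.44, Liph -7.39 to 0.194, Upk2 -8.81 to 9.52, Amy2a5 -7.46 to 3.02, Tmem238l -8.4 to 2.4, Vhl -0.00847 to 0.275 and Hif1a -0.429 to 0.044. Krt15, Liph, Upk2 and Tmem238l rested on untreated 7, Amy2a5 on untreated 4, and Sfrp5 and Nnat on EV 37. With 3 libraries a group and a simulated recovery of 30 of 100 genes at 4-fold, smaller differences may have gone undetected. The simulation held no differences in makeup, so what was detectable among these libraries was not tested. The cause of these shifts was not tested.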
